A study of Mus musculus with 6 samples.

Results

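The 10 genes described here encode surface and secreted proteins of homeostatic microglia: the receptors P2ry12, P2ry13, Gpr34, Cx3cr1 and Csf1r, the surface proteins Siglech, Selplg and Tmem119, and the secreted proteins Olfml3 and Sparc. They were chosen by name, with earlier results of these data known, and all 10 were among the 18792 genes of the deposited table. The data are scRNA-seq of spinal cord cells from WT mice and from Nd6 mice, which carry a point mutation in the mitochondrial complex I gene Nd6 that blocks reverse electron transport. There were 6 libraries, namely 2 of Nd6 mice with MOG EAE, 2 of WT mice with MOG EAE, 1 of Nd6 healthy control mice and 1 of WT healthy control mice. EAE (experimental autoimmune encephalomyelitis) was induced by immunization with a myelin oligodendrocyte glycoprotein (MOG) peptide in adult female mice, and healthy controls were of either sex. All mice were perfused with the transcription blockers actinomycin D and triptolide before the cord was taken, and myelin or debris was removed without a stated sort for a cell type. The number of mice in a library is not given in the sources used here.

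Microglia are the resident macrophages of the central nervous system, and in the healthy cord they depend on signalling through Csf1r and carry a set of receptors with which their processes sense nucleotides, lipids and chemokines. In mouse models of demyelination and neurodegeneration, microglia that take up a disease-associated (DAM) state lower much of this set and raise Apoe, the lipid carrier apolipoprotein E. Macrophages that enter the cord from the blood in EAE also raise Apoe and do not belong to the homeostatic population. The question asked of the data was therefore which of the 10 genes were kept and which were low in myeloid cells with much Apoe, and where else in the cord they were measured.

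The table held 13614 cells, each with a whole-number value for every gene and a total per cell between 687 and 1578 (median 962). The names of the cells end in 1 of 6 suffixes, which divide them into 6 sets, lettered A to F here by size (4633, 3995, 1664, 1309, 1204 and 809 cells). A suffix is made of 2 numbers in sets A and B, 3 in sets C and F and 4 in sets D and E. Nothing in the table or the labels ties a set to a library. The number of WT cells that the authors report equals the summed sizes of sets A, C and E. Their number of Nd6 cells equals that of sets B, D and F. By this match sets B and F would both be of Nd6 mice, and the match was not used here. Genotypes and healthy and EAE mice were not compared, the table counts as 1 sample, and no p-value was computed. There were 18 barcodes found in more than 1 set. Of the 14 clusters rebuilt without the 10 genes, 5 had a value for Tyrobp, the adaptor of myeloid activating receptors, in at least 80% of cells and were not named for another lineage or for proliferation. These 5 clusters held the 11369 myeloid cells (83.5% of all cells). By the value of Apoe, 8609 of them were Apoe-high (20 or more) and 2179 Apoe-low (under 10), and 581 lay between. In the cluster that 9 of 12 other homeostatic microglia markers named homeostatic microglia-like (1998 cells), each of the 10 had its highest mean of all 14 clusters. The 10 genes and the markers were chosen with earlier results of these data known, so this describes the label and does not test it.

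The Apoe groups and the sets were nearly the same division of the cells. Sets A, B, C and F held 8590 (99.8%) of the Apoe-high cells, and sets D and E held 1948 (89.4%) of the Apoe-low cells. Sets A and C had no Apoe-low myeloid cell (0 of 4137 and 0 of 1322), and sets D and E had only 12 and 7 Apoe-high cells. Both groups numbered at least 50 only in set B (2605 Apoe-high and 180 Apoe-low cells) and in set F (538 and 51). The median Apoe value of Apoe-low cells was 7 in each of these 2 sets, against 0 in each of sets D and E. The ratios within sets B and F thus compare other Apoe levels than those over all cells. Apoe also differed between sets in cells that are not myeloid: the median Apoe value of oligodendrocyte-like cells was 29, 11, 24 and 10 in sets A, B, C and F and 0 in sets D and E. The part that free Apoe RNA played in the sorting of myeloid cells into groups was not tested. In each result over all cells below, Apoe level and set cannot be told apart, and for the 10 genes and the listed genes named below the ratios within sets F and B are given too.

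All 10 genes were lower in Apoe-high than in Apoe-low myeloid cells, with ratios of mean values from 0.137 for P2ry12 to 0.375 for Cx3cr1 and a median of 0.234. All 10 had a ratio of 0.5 or less, which 7.57% of the 2747 genes with a mean of at least 0.05 over myeloid cells had, and the median ratio of those genes was 0.963. None was between 0.5 and 2 times its Apoe-low level, where 80.2% of all genes were, and all 10 were below 1, where 53% of all genes were. The median total per cell was 989 in Apoe-high and 948 in Apoe-low cells, and the mean of Tyrobp was 3.61 and 3.54 (ratio 1.02). Within set F the median ratio of the 10 was 0.426 and 6 were at 0.5 or less, beside 9.97% of all genes there. Within set B the median ratio was 0.689 and 1 was at 0.5 or less, beside 8.12% of all genes there. Within each of the 2 sets all 10 ratios were below 1, where 48.1% of all genes in set F and 61.9% in set B were. The 8 pan-myeloid genes, measured in the same way, had ratios between 0.464 (Aif1) and 0.935 (Tyrobp) within set F and between 0.649 (Aif1) and 1.23 (Tyrobp) within set B.

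**Figure D1:**
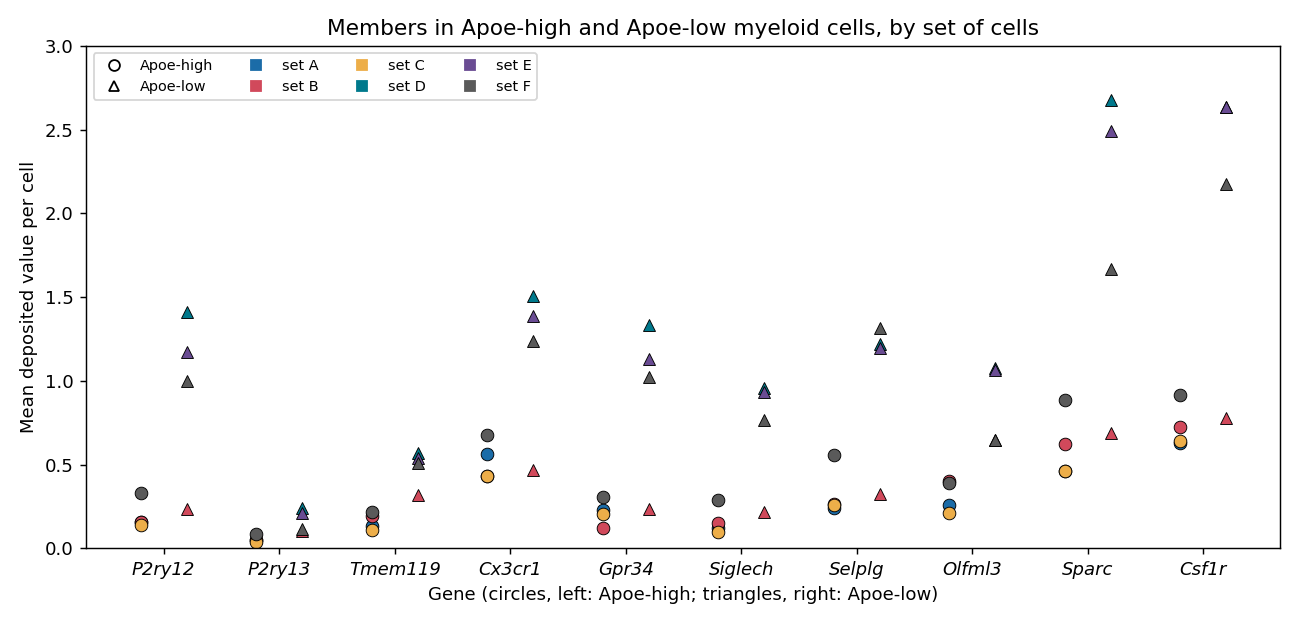
Mean deposited value per cell (y axis, linear) of each of the 10 genes (x axis) in Apoe-high myeloid cells (circles, left) and Apoe-low myeloid cells (triangles, right), with 1 point for each set that had at least 50 cells of the group, coloured by set. The Apoe-low points of sets D and E lie above every Apoe-high point of the same gene. The Apoe-low point of set B lies among the Apoe-high points for some genes, such as P2ry12, at 0.233 beside 0.139 to 0.327. For others it lies above them, such as Olfml3, at 0.644 beside 0.211 to 0.40.

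P2ry12, the ADP receptor that steers microglial processes to sites of injury, had the lowest ratio. Its mean value per cell in Apoe-high cells was 0.155 in set A, 0.158 in set B, 0.139 in set C and 0.327 in set F, and in Apoe-low cells it was 0.233 in set B, 1.41 in set D, 1.17 in set E and 1.00 in set F. The Apoe-low cells of set B thus lay below the Apoe-high cells of set F, and the groups overlapped through these sets alone. P2ry12 had a value above 0 in 14.3% of Apoe-high cells (exact binomial 95% interval 13.5 to 15.0%), against 58.6% of Apoe-low cells (56.5 to 60.6%). Such intervals cover counting error only, not differences between animals. Among cells with a value the mean was 1.16 in Apoe-high and 2.06 in Apoe-low cells. The level was thus lower both in the number of cells with a value and in the value they had. In oligodendrocyte-like cells, which should lack the gene, the share was 3.85% at a median total of 846. Within set F the shares were 23.8% in Apoe-high cells (20.2 to 27.6%), against 56.9% in Apoe-low cells (42.2 to 70.7%), and within set B they were 14.2% (12.9 to 15.6%), against 20.6% (14.9 to 27.2%), with intervals that overlapped.

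P2ry13, a second ADP receptor encoded next to P2ry12, was sparse in every group. Its mean was 0.0487, 0.0488, 0.0357 and 0.0836 in the Apoe-high cells of sets A, B, C and F, against 0.106, 0.241, 0.211 and 0.118 in the Apoe-low cells of sets B, D, E and F. Here the groups did not overlap, although in set F both lay close together. P2ry13 was the 1 gene of the 10 whose ratio was lower within set B (0.462) than within set F (0.711). That ratio in set F rests on 4 of 51 Apoe-low cells with a value (7.84%, 2.18 to 18.9%), against 41 of 538 Apoe-high cells (7.62%, 5.52 to 10.2%).

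P2ry12 and P2ry13 are neighbours on mouse chromosome 3, and both lie on the minus strand within the span of Med12l, a Mediator subunit gene on the plus strand. In the GENCODE M21 annotation of GRCm38, the build of the files, P2ry12 spans chr3:59216272-59262871 and P2ry13 chr3:59207892-59210882. Intronic reads were counted, and a strand setting is not given in the sources used here. Whether reads of Med12l, on the other strand, entered the values of the pair was not tested. Med12l itself had a mean of 0.0164 in Apoe-high and 0.0161 in Apoe-low cells. Gpr34 likewise lies within Cask on the other strand (Cask mean 0.0313 and 0.0427), and the longest model of Cx3cr1 reaches over Gorasp1, Csrnp1 and Xirp1 on its own strand, each with a mean under 0.05 in both groups. Tmem119 (chr5:113793729-113800516) and Selplg (chr5:113818536-113832644) are likewise close together on the minus strand of chromosome 5, with no gene of GENCODE M21 overlapping either.

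The bases just before the start of P2ry12, P2ry13 and Sparc follow, the first pair because they stand side by side and were low together, and Sparc because it was the 1 gene of the 10 with a mean above that of all myeloid cells in several named lineages. They come from RefSeq on GRCm38.p6, where 6 of the 10 genes matched, and each holds the 100 bases before the annotated start on the minus strand (chr3:59262986-59263085, chr3:59210883-59210982 and chr11:55420081-55420180). Capitals mark GAGGAA, the core that the myeloid factor PU.1 prefers, searched on both strands of the 250 bases before the start. Of 32851 mouse promoters, 23.3% held it, and of the 6 matched genes P2ry13 did, with 1 match that begins 48 bases before the start. A match is a description of letters and not a binding site.
P2ry12: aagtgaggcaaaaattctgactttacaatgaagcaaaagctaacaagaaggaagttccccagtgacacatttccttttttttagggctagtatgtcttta
P2ry13: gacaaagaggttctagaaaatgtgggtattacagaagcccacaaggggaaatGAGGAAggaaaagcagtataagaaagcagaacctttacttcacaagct
Sparc: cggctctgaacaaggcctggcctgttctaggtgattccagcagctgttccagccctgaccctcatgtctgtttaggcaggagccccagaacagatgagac

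Gpr34, a receptor for lysophosphatidylserine, was low to nearly the same degree as P2ry12 (ratio 0.171). Its mean was 0.228, 0.120, 0.204 and 0.309 in the Apoe-high cells of sets A, B, C and F, against 0.233, 1.34, 1.13 and 1.02 in the Apoe-low cells of sets B, D, E and F. The Apoe-low cells of set B again lay among the Apoe-high sets. Gpr34 had a value in 17.1% of Apoe-high cells (16.3 to 17.9%), against 53.4% of Apoe-low cells (51.3 to 55.5%) and 5.98% of oligodendrocyte-like cells. Its ratio was the lowest of the 10 within set F (0.303), and it was 0.513 within set B.

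Cx3cr1, the receptor for the neuronal chemokine fractalkine, was the gene of the 10 that was kept best over all cells (ratio 0.375). Its mean was 0.563, 0.432, 0.430 and 0.678 in the Apoe-high cells of sets A, B, C and F, against 0.467, 1.51, 1.39 and 1.24 in the Apoe-low cells of sets B, D, E and F. Apoe-high cells of sets A and F had more of it than Apoe-low cells of set B. Cx3cr1 had a value in 37.4% of Apoe-high cells (36.4 to 38.4%), against 62.7% of Apoe-low cells (60.6 to 64.7%) and 14.2% of oligodendrocyte-like cells. Within set B its mean hardly differed between the groups (ratio 0.925) and the shares were 31.4% and 30.6%. Within set F its ratio was 0.549.

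Csf1r, the receptor tyrosine kinase for the survival factors CSF1 and IL-34, had a ratio of 0.275 over all cells. Its mean was 0.628, 0.722, 0.638 and 0.915 in the Apoe-high cells of sets A, B, C and F, against 0.778, 2.63, 2.64 and 2.18 in the Apoe-low cells of sets B, D, E and F. The 3 Apoe-low sets other than B stood well above every Apoe-high set. By share, Csf1r was kept second best after Cx3cr1, with a value in 45.7% of Apoe-high cells (44.6 to 46.7%), against 78.8% of Apoe-low cells (77.0 to 80.5%), which is 0.580 times as many, where Cx3cr1 had 0.596 times as many. The share in oligodendrocyte-like cells was 15.4%. Within set B the ratio of Csf1r was 0.928, the highest of the 10, and the shares were 47.6% and 42.8% with overlapping intervals.

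Siglech, a sialic acid-binding lectin that in the mouse also marks plasmacytoid dendritic cells, had the second lowest ratio (0.155). Its mean was 0.119, 0.152, 0.0965 and 0.290 in the Apoe-high cells of sets A, B, C and F, against 0.217, 0.960, 0.935 and 0.765 in the Apoe-low cells of sets B, D, E and F. It had a value in 11.8% of Apoe-high cells (11.1 to 12.5%), against 51.1% of Apoe-low cells (49 to 53.2%), the widest relative gap in share of the 10 (0.231 times). The Apoe-low cells of set B lay below the Apoe-high cells of set F. In oligodendrocyte-like cells the share was 5.98%. The ratio of Siglech was 0.379 within set F and 0.702 within set B.

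Selplg encodes PSGL-1, the ligand through which leukocytes bind selectins. Its mean was 0.242, 0.265, 0.259 and 0.558 in the Apoe-high cells of sets A, B, C and F, against 0.322, 1.22, 1.20 and 1.31 in the Apoe-low cells of sets B, D, E and F. Set F was the highest in both groups. Its ratio was 0.239 over all cells, 0.424 within set F and 0.821 within set B, where the shares were 21.7% in Apoe-high and 20% in Apoe-low cells.

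Tmem119, a transmembrane protein used to tell microglia from other macrophages, had means of 0.132, 0.195, 0.109 and 0.217 in the Apoe-high cells of sets A, B, C and F, against 0.317, 0.571, 0.540 and 0.510 in the Apoe-low cells of sets B, D, E and F. The groups did not overlap. Its ratio was 0.286 over all cells, and it was the 1 gene whose shares had intervals apart within both sets. Within set F it had a value in 18.4% of Apoe-high cells (15.2 to 21.9%), against 37.3% of Apoe-low cells (24.1 to 51.9%). Within set B it had a value in 16.9% of Apoe-high cells (15.5 to 18.4%), against 25% of Apoe-low cells (18.9 to 32.0%). In set F its highest level was in neither group but in the 84 cells with Apoe between 10 and 19, where its mean was 0.905 and its share 51.2%.

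Of the secreted pair, Olfml3, an olfactomedin-domain protein of the extracellular space, was kept second best by mean (ratio 0.293). Its mean was 0.256, 0.40, 0.211 and 0.390 in the Apoe-high cells of sets A, B, C and F, against 0.644, 1.08, 1.07 and 0.647 in the Apoe-low cells of sets B, D, E and F. The groups did not overlap, and set B, which was low in the Apoe-low group for the receptors, had about the same Olfml3 level as set F there. Its ratio was close in the 2 sets, 0.603 within set F and 0.620 within set B.

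Sparc, a matricellular glycoprotein that binds collagen, had means of 0.462, 0.624, 0.462 and 0.885 in the Apoe-high cells of sets A, B, C and F, against 0.689, 2.68, 2.49 and 1.67 in the Apoe-low cells of sets B, D, E and F. Set B in the Apoe-low group lay below set F in the Apoe-high group. Sparc had a value in 37.6% of Apoe-high cells (36.6 to 38.6%), against 78.7% of Apoe-low cells (76.9 to 80.4%). Its ratio was 0.224 over all cells, 0.531 within set F and 0.905 within set B, where more Apoe-high than Apoe-low cells had a value (40.8% and 33.9%, with overlapping intervals).

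**Figure D2:**
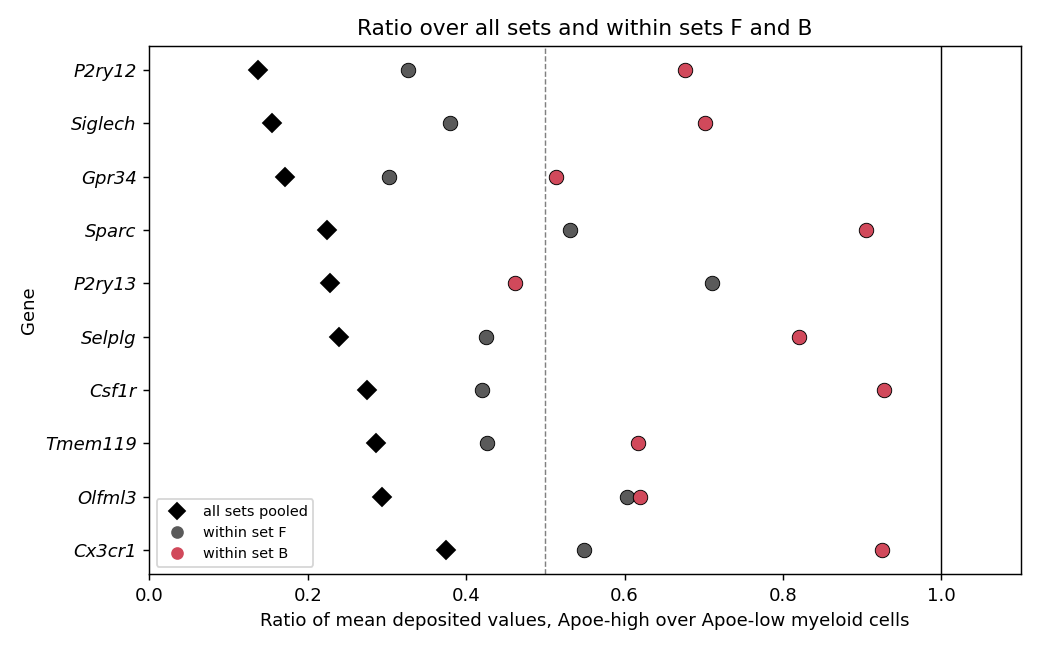
Ratio of the mean deposited value in Apoe-high over Apoe-low myeloid cells (x axis, linear) for each of the 10 genes (y axis), over all sets (black diamonds), within set F (grey circles) and within set B (red circles). The solid line marks equal means and the dashed line a ratio of 0.5. All 30 points lie below 1, and for 9 of the 10 genes the order is all sets, set F, set B, with P2ry13 the exception.

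The order of the ratios was not sharp between neighbours. When each set was left out in turn, P2ry12 moved between 0.127 and 0.163, Siglech between 0.139 and 0.175 and Gpr34 between 0.147 and 0.201, so that these 3 overlapped among themselves. Cx3cr1, at 0.340 to 0.416, overlapped no other gene, as Olfml3, the gene below it, moved between 0.244 and 0.334. The remaining 6 genes lay between 0.196, for Sparc, and 0.334, and their ranges overlapped in part.

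Counted per cell, the 10 genes were low together. The median Apoe-high cell had a value for 2 of the 10, against 6 in the median Apoe-low cell. No gene of the 10 had a value in 10.4% of Apoe-high cells (9.80 to 11.1%), against 2.75% of Apoe-low cells (2.11 to 3.53%), and 5 or more had one in 7.99% (7.43 to 8.59%), against 66.5% (64.4 to 68.4%). Within set F the medians were 3 and 6. Within set B they were 2 and 2, and 26.1% of its Apoe-low cells had none of the genes (19.9 to 33.2%), against 9.21% of its Apoe-high cells (8.13 to 10.4%).

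The Apoe-low cells of sets B and F lay mostly in another cluster than those of sets D and E. Of the 180 in set B, 153 lay in cluster 4, an unnamed cluster led by Cox6a2, Eno1 and Hmox1, as did 31 of the 51 in set F, whereas 1053 of 1076 in set D and 859 of 872 in set E lay in the homeostatic microglia-like cluster. The summed level of the 12 homeostatic markers (none of the 10 genes) was 3.74 in the Apoe-low cells of set B, beside 3.48 in the Apoe-high cells of set B and 8.24, 10.54 and 10.39 in the Apoe-low cells of sets F, D and E. The summed level of the 12 DAM markers, Apoe among them, was 15.9, 9.65 and 1.39 in the Apoe-low cells of sets B, F and D. Apoe, the gene that set the groups, alone averaged 6.64, 6.35 and 0.820 in these cells, so the sums are not separate from the Apoe limits. The summed level of the 14 infiltrating macrophage or monocyte markers was 5.02, 2.20 and 0.443. The part of these markers in the values of sets B and F was not tested.

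Over finer steps of Apoe the courses differed between sets. In set F, P2ry12 had a mean of 1.00 in cells with Apoe from 3 to 9, 0.845 from 10 to 19, 0.50 from 20 to 49 and 0.274 from 50 to 99. Csf1r followed the same course in that set, at 2.13, 2.11, 1.52 and 0.731. In sets D and E together P2ry12 was 1.40 in cells with an Apoe value of 0, 1.23 from 1 to 2 and 0.846 from 3 to 9, and the median totals of these cells were 963, 934.5 and 858. The cells just under the limit for Apoe-high (10 to 19, 581 cells of all sets) had P2ry12 in 24.8%, and those just over it (20 to 49, 3023 cells) in 14.5%.

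In set A, with no cell at low Apoe, the order ran the other way for Cx3cr1 and Csf1r. Cx3cr1 had a mean of 0.455 in cells with Apoe from 20 to 49, 0.527 from 50 to 99 and 0.590 at 100 or more, and Csf1r had 0.451, 0.571 and 0.672. The median total of these cells was also higher at each step, at 813, 907.5 and 1143, and so was the mean of Tyrobp, at 3.37, 3.79 and 3.99. The part of the total in these means was not tested. In set C the same genes did not take this order, and Cx3cr1 was 0.480, 0.487 and 0.361 over the same steps, with median totals of 820, 776 and 829. In set B, Olfml3 was 0.659, 0.772, 0.384 and 0.667 over the steps from 3 to 9 to 50 to 99, the last step with 126 cells.

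**Figure D3:**
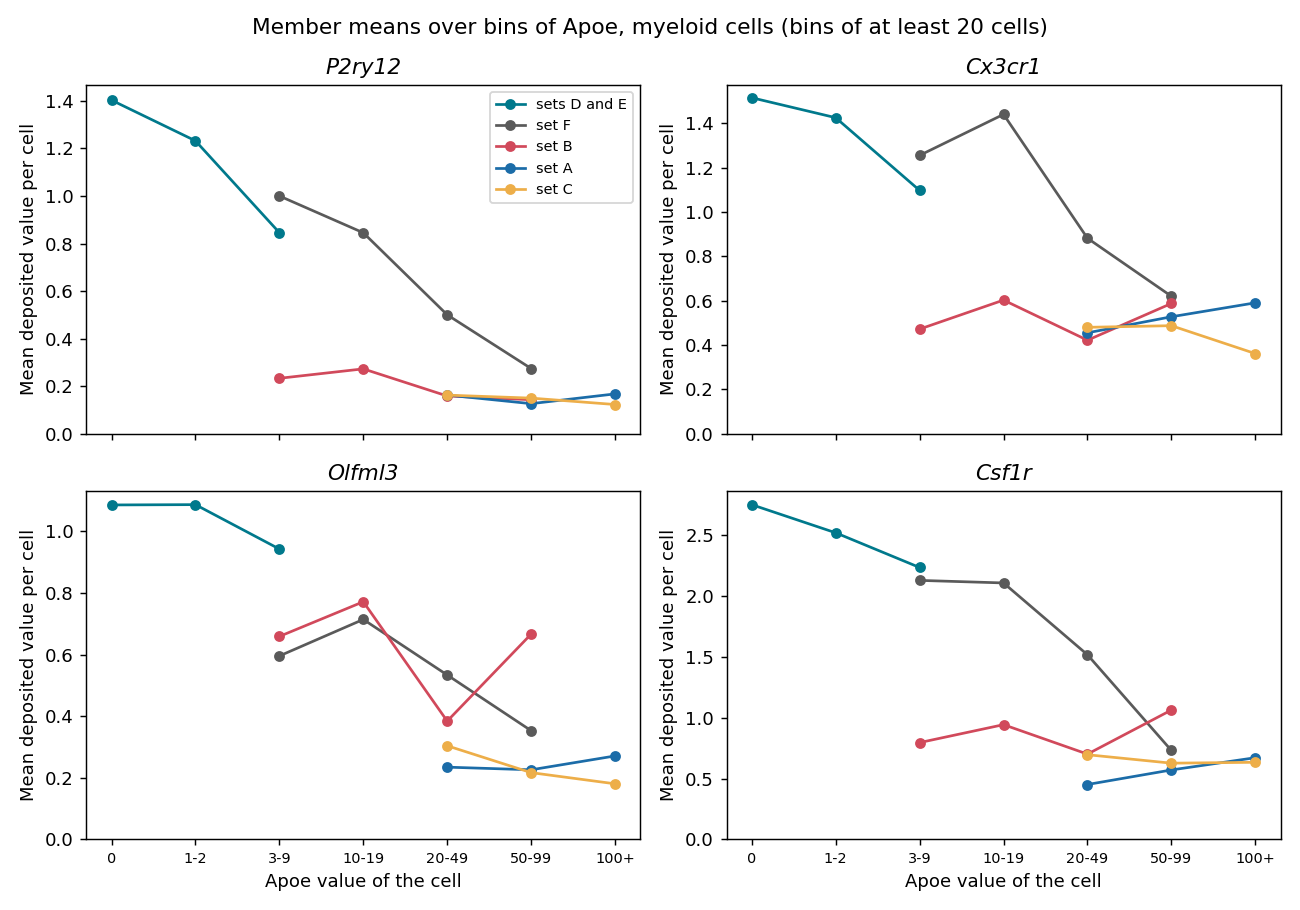
Mean deposited value per cell (y axis, linear, starting at 0) of P2ry12, Cx3cr1, Olfml3 and Csf1r over 7 steps of the Apoe value (x axis, low to high), with 1 line for sets D and E together and 1 each for sets F, B, A and C, and points only where a step had at least 20 myeloid cells. The line of set F falls across the Apoe limit of 20 for P2ry12 and Csf1r, while those of sets A and C are nearly flat for P2ry12, between 0.123 and 0.167.

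Among the 5 myeloid clusters the 10 genes set the homeostatic microglia-like cluster apart from the other 4. P2ry12 had a mean of 1.31 in it, against 0.176 in unnamed cluster 0 (8 of 12 DAM markers at 2-fold or more, but led by Ighg2c, Ighg1 and Igkc, transcripts of immunoglobulin genes, and therefore left unnamed), 0.145 in the cluster whose markers were infiltrating macrophage or monocyte-like (led by Arg1 and F10, with 2445 of its 2469 cells from set B), 0.120 in unnamed cluster 3 (led by Apoe and Apoc1) and 0.279 in unnamed cluster 4. Arg1, F10, AA467197, Clec4n and Plac8 led the infiltrating macrophage or monocyte-like cluster and are also on the list that named it. That list had 7 of 14 markers at 2-fold or more and was chosen with earlier results of these data known. The name is therefore not independent of the cluster. Tmem119, used elsewhere to tell microglia from blood-derived macrophages, was in 15.6% of the infiltrating macrophage or monocyte-like cells (14.1 to 17.0%), against 13.3% of cluster 0 (12.2 to 14.5%) and 8.81% of cluster 3 (7.53 to 10.2%). It was therefore not lower in the cluster named for infiltrating cells than in those other 2. Gpr34 was, with 9.56% (8.43 to 10.8%), against 22.0% of cluster 0 (20.7 to 23.5%) and 14.2% of cluster 3 (12.6 to 15.9%). Cx3cr1 had 45.5% in cluster 0, against 29.4% in the infiltrating macrophage or monocyte-like cluster and 29.1% in cluster 3. Clusters and sets overlap so closely that these differences cannot be told apart from differences between sets.

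The homeostatic microglia-like cluster also held 31 Apoe-high cells, from all 6 sets, beside 1931 Apoe-low cells. Among the Apoe-high cells of this cluster the order of the genes was not the one over all cells. Siglech had a mean of 1.13, against 0.953 in the Apoe-low cells of the cluster, Cx3cr1 1.58, against 1.46, and Selplg 1.29, against 1.23. P2ry12 had 0.613, against 1.32, and P2ry13 0.0968, against 0.228, and these were the only genes with a ratio of 0.5 or less there (0.465 and 0.425). The share for P2ry12 was 45.2% (27.3 to 64.0%), against 62.9% (60.7 to 65.0%), so that the intervals overlapped. As the cluster was built from genes that vary with the 10, a kept level inside it is a description of how it was cut. In cluster 4, with 1039 Apoe-high and 219 Apoe-low cells, all 10 ratios lay between 0.553 for Siglech and 0.959 for Cx3cr1. Of these Apoe-low cells 153 were from set B, whereas 385, 295, 233 and 119 of the Apoe-high cells were from sets A, C, B and F. Apoe level and set cannot be told apart there either. For neither cluster is the share of all genes at such ratios given here.

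**Figure D4:**
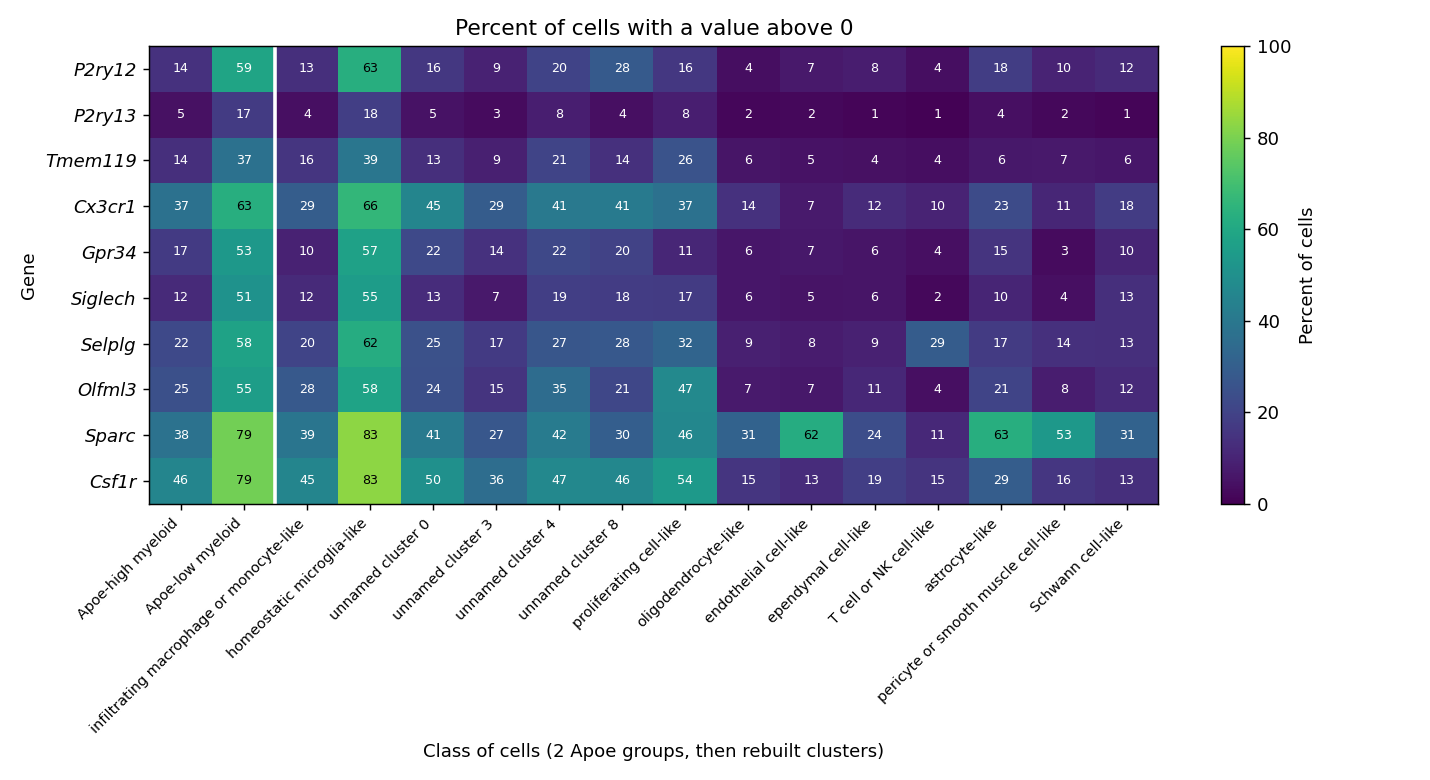
Percent of cells with a value above 0 (colour and printed numbers, 0 to 100) for each of the 10 genes (rows) in Apoe-high and Apoe-low myeloid cells (left of the white line, Apoe-high first) and in the 14 rebuilt clusters (right). The homeostatic microglia-like column is the brightest for every gene, and Sparc is bright in the columns of astrocyte-like, pericyte or smooth muscle cell-like and endothelial cell-like cells as well, at 62.7, 53.5 and 62.1%.

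In the 7 named lineages outside the myeloid clusters, Sparc was the 1 gene of the 10 with a mean above that over all myeloid cells. The proliferating cell-like cluster and unnamed cluster 8 also lay outside, and other genes were above their all-myeloid mean there, such as Olfml3 in the first (0.897, against 0.465) and P2ry12 (0.461, against 0.375) and Cx3cr1 (0.896, against 0.686) in cluster 8. The mean of Sparc was 1.96 in astrocyte-like cells (126 cells), 1.73 in Schwann cell-like cells (67), 1.57 in pericyte or smooth muscle cell-like cells (101), 1.41 in endothelial cell-like cells (306) and 0.521 in oligodendrocyte-like cells (753), against 0.927 over all myeloid cells. Sparc had a value in 62.7% of astrocyte-like cells (53.6 to 71.1%) and 62.1% of endothelial cell-like cells (56.4 to 67.6%), both above its share in Apoe-high myeloid cells. The mean of the Schwann cell-like cells rested on few cells, since only 31.3% had a value (SD 6.02). T cell or NK cell-like cells had the lowest level of the lineages, with a mean of 0.121 and a share of 11.4%.

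Free myeloid RNA gives values in cells of any type, so each gene was also set against Tyrobp in the same cells. In sets A, B, C and F the mean of Sparc was 0.149 times that of Tyrobp in Apoe-high myeloid cells, against 1.24 times in endothelial cell-like cells, and it was more than 2 times the Apoe-high figure in 5 of 7 lineages. In sets D and E the mean of Sparc was 0.718 times that of Tyrobp in Apoe-low myeloid cells, against 3.98 times in endothelial cell-like cells.

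Selplg was the other gene with a lineage of its own. T cell or NK cell-like cells had it in 29.3% (21.9 to 37.6%), with a mean of 0.350, and in sets A, B, C and F that mean was 0.426 times the mean of Tyrobp, against 0.0752 times in Apoe-high myeloid cells. In the 6 other lineages of those sets the figure for Selplg was at most 0.0957, in Schwann cell-like cells.

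For the 8 other genes no lineage of sets A, B, C and F had more than 2 times the Apoe-high ratio to Tyrobp. P2ry12 had a mean of 0.0456 times that of Tyrobp in Apoe-high myeloid cells and between 0.0227 (oligodendrocyte-like) and 0.0674 times (endothelial cell-like) in the 7 lineages. The low shares of P2ry12 in these 7 lineages, 3.57 to 18.2% over all sets, were therefore not read as expression there, and whether free RNA or cells captured together gave them was not tested. In sets D and E, where myeloid cells had more of it, the figure for P2ry12 was 0.360 in Apoe-low myeloid cells and 0.242 to 0.458 in the 5 lineages with enough cells. The exception in those sets was Olfml3, which in ependymal cell-like cells was at 0.667 times Tyrobp, against 0.297 times in Apoe-low myeloid cells.

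Astrocyte-like cells of sets D and E (30 cells) had Csf1r in 66.7% and P2ry12 in 53.3% of cells, close to the Apoe-low myeloid cells of those sets (82.1% and 62.1%). The figure against Tyrobp for P2ry12 in these astrocyte-like cells was 0.424, beside 0.360 in Apoe-low myeloid cells. Whether they are doublets was not tested.

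The proliferating cell-like cluster (311 cells, of which 263 were from set B), in which 85.9% of cells had Tyrobp, had Olfml3 in 46.9% (41.3 to 52.7%) with a mean of 0.897. Apoe-high cells of set B had an Olfml3 mean of 0.40. P2ry12 in the same cluster had a mean of 0.196, beside 0.158 in those Apoe-high cells.

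Most other genes known from homeostatic microglia were low as well over all cells. Of 18 listed, 15 had a mean of at least 0.05 over myeloid cells (median ratio 0.362). Of these, 13 were at 0.5 or less in Apoe-high cells, where 7.57% of all genes were. Cst3, the protease inhibitor cystatin C, averaged 11.6 in Apoe-high and 65.8 in Apoe-low cells (ratio 0.176). Sall1, a transcription factor that keeps microglial identity, averaged 0.0420 and 0.167 (0.252). The exceptions were Hpgds, a prostaglandin D synthase (0.630), and Cd33, a sialic acid-binding lectin (0.782). The pan-myeloid genes were less low, with 2 of 8 at 0.5 or less (7.57% of all genes), Laptm5 (0.324) and Ctss (0.471), and a median of 0.711. Of 8 DAM genes 7 were at 2 or more, among them Spp1, the secreted protein osteopontin (21.9), and Gpnmb, a lysosomal glycoprotein (62.7), where 12.2% of all genes were. Trem2, a lipid-sensing receptor, was level (0.946). Within set F the ratios were 0.423 for Cst3, 0.403 for Sall1, 0.678 for Hpgds, 0.559 for Cd33, 0.467 for Laptm5, 0.623 for Ctss, 4.87 for Spp1, 20.2 for Gpnmb and 0.967 for Trem2. Within set B they were nearer to 1 for Cst3 (0.872), Hpgds (0.737), Laptm5 (1.00), Spp1 (2.30) and Gpnmb (3.62) but not for Sall1 (0.376), and Cd33, Ctss and Trem2 were at 1.23, 1.13 and 1.31. Of the 15 homeostatic genes, only Sall1, Crybb1, Golm1, Serpine2 and Cst3 were at 0.5 or less within set F, beside 9.97% of all genes there. Within set B only Sall1 was, beside 8.12% of all genes there. Ecscr (1.90), Rnase4 (1.87), Mef2c (1.14) and Fcrls (1.07) were above 1 within set F, and the others of the 15 were below 1. Fcrls (1.22) and Rnase4 (1.09) were above 1 within set B too, as was Cd33.

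Of 11 other purinergic genes analysed here, 4 had a mean of at least 0.05 over myeloid cells. Of these, 1 was at 0.5 or less, where 7.57% of all genes were. Entpd1, which encodes CD39, the surface enzyme that breaks down ATP and ADP, averaged 0.122 in Apoe-high and 0.362 in Apoe-low cells (ratio 0.336). P2rx4, an ATP-gated channel, averaged 0.111 and 0.0312 (3.55). P2ry6, a UDP receptor, and P2rx7, an ATP-gated channel, had ratios of 1.27 and 1.46. Within set F the ratios were 0.687 for Entpd1, 1.42 for P2rx4, 0.422 for P2ry6 and 0.916 for P2rx7. Within set B they were 1.20, 1.03, 0.837 and 1.98 in the same order.

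Of the ligands and partners of the receptors, 10 were listed, of which Sele was not analysed here and 5 had a mean of at least 0.05 over myeloid cells. Csf1, a ligand of Csf1r, averaged 0.0855 in Apoe-high cells and 0.0110 in Apoe-low cells (ratio 7.76), so that over all cells the ligand was higher where its receptor was lower. Its ratio was 2.56 within set F and 1.84 within set B. Il34, the other ligand of Csf1r, was highest in pericyte or smooth muscle cell-like cells (0.149), and Cx3cl1, the ligand of Cx3cr1, in endothelial cell-like cells, at only 0.0229. Tgfb1 and its receptors Tgfbr1 and Tgfbr2, the pathway on which the homeostatic programme depends in the mouse, had ratios of 0.578, 0.542 and 0.768 over all cells, 0.352, 0.858 and 0.872 within set F and 1.02, 1.60 and 0.854 within set B.

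Of 10 relatives of the secreted pair, 2 had a mean of at least 0.05 over myeloid cells and neither was at 0.5 or less. Sparcl1, the closest listed relative of Sparc, averaged 0.1795 in Apoe-high and 0.189 in Apoe-low cells and was highest in astrocyte-like cells (3.59). Spock2, a proteoglycan with a Sparc-like domain, averaged 0.0965 and 0.0688 and was highest in endothelial cell-like cells (1.85). The ratio of Sparcl1 was 1.98 within set F and 1.51 within set B, and that of Spock2 was 0.760 within set B.

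Over the 14 clusters, 9 of the 10 genes ran closely together and Sparc stood aside. Pearson's r of log2(mean + 0.01) was 0.964 for P2ry13 with Tmem119 and 0.954 for P2ry13 with Csf1r, whereas for Sparc the closest of the 10 was P2ry12 at 0.593 and the farthest Selplg at 0.110. Among 2866 genes with a mean of at least 0.05 over all cells, those closest to P2ry12 were Cyfip1 (0.942), Gpr34 (0.907) and Abca9 (0.904), and among those closest to Cx3cr1 were Lpcat2 (0.964) and Fcrls (0.945). Closest to Selplg were Laptm5 (0.962), Vsir (0.926) and Havcr2 (0.914), and closest to Sparc were Jam2 (0.829), Fez2 (0.777) and Ptms (0.768). The closest to Tmem119 outside the 10 were Itgam and Fcrls (both 0.947), to P2ry13 Crybb1 (0.963), to Gpr34 Cst3 (0.919), to Siglech Rnase4 (0.916) and to Olfml3 Alox5ap (0.961), and among those closest to Csf1r was Ctss (0.944). The points of these correlations share sets, free RNA and the range between myeloid and other clusters, and they describe the clusters only.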

How the data were processed

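Spinal cord cells were profiled with the 10x Genomics 3′ v2 protocol. Per the authors' methods, Cell Ranger 7.1.0 was run against GRCm38 with intronic reads, and Seurat 4.3.0.1 was used to combine and filter cells. The deposited table holds a score for each gene and cell, whole numbers whose derivation from UMI counts is not given in the sources used here, so sequencing depth is unknown and no count model was used. The 10 genes and all lists were chosen with earlier results of these data known.

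Cells were clustered with Seurat 5.3.0 in R 4.3.3 (log normalization to 10000, 5000 variable features of which 4990 remained once the 10 genes were left out, 50 components, 20 neighbours, Louvain resolution 0.3, no batch correction). A cluster was named from fixed markers when at least 3 and at least 40% of a list were at 2-fold or more, no other list had more markers among its 10 leading genes, either 1 of its own was among them or 60% were at 2-fold, and none of its 3 leading genes encoded an immunoglobulin, a condition set after the clusters were seen, which left cluster 0 unnamed. Unnamed cluster 8 had 3 of 7 neutrophil markers. Means, shares and ratios came from Python 3.11.15, numpy 2.4.6 and scipy 1.17.1, with exact binomial (Clopper-Pearson) 95% intervals. Shares were not thinned to 1 depth, since totals are narrow and not UMI counts. The calculation of the ratio was tested on simulated data. Such a test does not bear on the near match of Apoe groups and sets or on the derivation of the values. Named genes were the 10, the listed genes, the leading genes of clusters, genes overlapping the 10 and, for each of the 10, the 3 genes most alike over clusters. A few genes that the rule takes in are left out of the text. Scrublet (scanpy 1.11.5) marked 67 cells (0.492%), too few to be taken as having found the doublets, and they were kept. Alternatives covered scaling to the total without Apoe, the definition of myeloid cells, clustering features and resolution, Apoe limits of 50 and 5, ratio limits, doublets and sets. No per-sample columns were left unused.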

Additional observations from a re-analysis of the deposited data

How the results depend on the processing

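Of 160 ratios of single genes under 16 alternatives, all were below 1, from 0.124 to 0.928, and 133 stayed within 1.5 times of the reported ratio. The 27 that moved further were all within set B, within set F or without sets D and E, the last chosen after seeing the data. Of all genes, 53% were below 1 over all cells, 61.9% within set B and 48.1% within set F. The alternatives reuse the same cells and are not separate tests. The median ratio of the 10 genes was 0.689 within set B, 0.426 within set F and 0.475 without sets D and E, and it lay between 0.219 and 0.259 with each set left out in turn. The number at 0.5 or less was 1, 6 and 6 in those 3 settings, and the number between 0.5 and 2 was 9, 4 and 4. Of all genes, 8.12% were at 0.5 or less within set B and 9.97% within set F, and the share without sets D and E is not given here. The 2 numbers stayed at 10 and 0 in the other settings, among them the removal of Apoe-high cells of the infiltrating macrophage or monocyte-like cluster (median ratio 0.245, also chosen after seeing the data). The median share of Apoe-high cells with a value, 19.6% over all cells, was 21.1% with Apoe limits of 50 and 5, 28.1% within set F and 21.3% without that cluster, and between 18.8 and 20.8% with each set left out. At a Louvain resolution of 1.0, 2 genes instead of 1 had a mean above the myeloid mean in a named lineage outside the myeloid clusters, Selplg besides Sparc. The cause of these shifts was not tested. Without the filter on low means, 6.73% of 18760 genes were at 0.5 or less. No paired analysis was possible because the sets of cells carry no replicate number. The unknown depth and the near match of Apoe groups and sets limit every value over all cells, and no interval covers differences between mice.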
